A study of Mus musculus with 2 samples.

Results

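The 7 genes described here handle the amino acid arginine: Nos2, Arg1, Arg2, Ass1, Odc1, Slc7a2 and Slc7a1. They were taken by symbol from the 32285 gene rows of both libraries, and all 7 were found. Their levels come from 9558 cells of a vehicle library and 25183 cells of a takinib library, grouped into cell classes by marker genes, with 5041 and 7299 macrophage-like cells at the centre of the account.

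Arginine enters cells through cationic amino acid transporters, chiefly Slc7a1 in most tissues and Slc7a2 in activated macrophages. Inducible nitric oxide synthase (Nos2) turns it into nitric oxide and citrulline, whereas arginase (Arg1 in the cytosol, Arg2 in mitochondria) turns it into ornithine and urea. Ass1, with Asl, rebuilds arginine from citrulline, and Odc1 converts ornithine to putrescine, the start of polyamine synthesis. In mouse macrophages Nos2 is known as a gene of inflammatory activation and Arg1 as a gene of alternative activation and of tumour macrophages, and both enzymes draw on one arginine pool.

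The libraries came from pancreatic tumours of KPPC mice, in which Cre recombinase removes Trp53 in the pancreas; the labels do not give the Cre driver. At 6 weeks of age the animals were dosed for 14 days, one group with vehicle and the other with takinib, 50 mg/kg. Takinib inhibits the kinase TAK1 (Map3k7), a step between inflammatory receptors and the transcription factors NF-kB and AP-1. Tumours were digested to single cells without any stated sort, and the number of mice behind each library is not given. Each group is 1 library, so no difference below has a replicate check, no test was possible, and every interval covers counting error alone.

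In the mouse genome (GRCm38, GENCODE M21) all 7 members are annotated as protein-coding. Nos2 (ENSMUSG00000020826) lies on chromosome 11 at 78920787 to 78960254. Arg1 (ENSMUSG00000019987) lies on chromosome 10 at 24915221 to 24927484, and Arg2 (ENSMUSG00000021125) on chromosome 12 at 79130777 to 79156301. Ass1 (ENSMUSG00000076441) lies on chromosome 2 at 31470207 to 31520672, and Odc1 (ENSMUSG00000011179) on chromosome 12 at 17544794 to 17551505. The transporters are on chromosome 8 at 40862396 to 40922308 (Slc7a2, ENSMUSG00000031596) and chromosome 5 at 148327410 to 148399904 (Slc7a1, ENSMUSG00000041313).

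The RefSeq promoter table (build GRCm38.p6) held 3 of the 7 members, Ass1, Odc1 and Slc7a1, and not Nos2, Arg1, Arg2 or Slc7a2. The promoters of Ass1 and Odc1 are shown because these enzymes behaved differently in the macrophage-like cells described below, Ass1 tracking Nos2 and Odc1 not. Each sequence is the first 150 of the 250 bases before the RefSeq start, on the gene's own strand, 5′ to 3′. Capitals mark matches on either strand to a general NF-kB word: GGG, any 5 bases, then CC.
Ass1, chr2:31470020-31470169: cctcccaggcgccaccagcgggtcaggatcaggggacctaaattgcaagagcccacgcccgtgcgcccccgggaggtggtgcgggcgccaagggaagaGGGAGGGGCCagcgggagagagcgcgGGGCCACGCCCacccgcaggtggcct
Odc1, chr12:17544623-17544772: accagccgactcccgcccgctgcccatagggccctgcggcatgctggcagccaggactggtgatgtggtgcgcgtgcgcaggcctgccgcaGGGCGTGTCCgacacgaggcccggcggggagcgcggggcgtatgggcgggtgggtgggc
The 250 bases of Ass1 held 6 such matches, 3 of them, overlapping in part, within the bases shown. Those of Odc1 held 1, and those of the Slc7a1 start sites 7 and 0. The word is common, since 45.8% of the 32851 promoters in the table held it, and the matches are a description of letters only. TTCNNNGAA, a STAT word, was not in the Ass1 and Odc1 windows and occurred once in 1 of the Slc7a1 windows, beside 7.02% of all promoters. TTGCNNAA, a C/EBP word, was in none of the members' windows, beside 9.56% of all promoters.

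The libraries differed in more than treatment. The kept cells held 42000538 UMIs in vehicle (median 3556 per cell) and 119726977 in takinib (median 2887), and the median mitochondrial share was 8.70% against 1.79%. Vehicle held 1075 cells with Xist and no Y-linked UMI and 3087 with the reverse, so cells of both sexes were present, while takinib held 14324 and 0. Past the filters, 400 barcode sequences occurred in both libraries. Neutrophil RNA was widespread in takinib: S100a8, a calprotectin gene that marks neutrophils, was at 4529 counts per 1000000 UMIs of the class (CPM) in fibroblast-like cells there and at 44.7 CPM in vehicle. Treatment cannot be told apart from these differences.

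The macrophage-like class was described by marker sums. The same lists had named the clusters, so the sums are no separate check of the label. The list of 12 macrophage markers came to 40438 CPM in vehicle and 22995 in takinib, against 1387 to 3832 and 1039 to 1628 in neutrophil-, T-, B-, fibroblast-, epithelial- and dendritic-like cells. The list of 8 monocyte markers came to 6824 and 12562 CPM in the class, and that of 9 neutrophil markers to 382 and 8602, with none of these markers at 0. In vehicle the monocyte list was higher in epithelial-like cells, at 7161 CPM, with 1044 to 4573 in the other classes compared. In takinib those classes and epithelial-like cells had 1575 to 5186 CPM. The class was made of different clusters in the libraries. In vehicle 55.7% of it was cluster 0, led by H2-Ab1 (MHC class II), 28.7% cluster 2, led by Trf, and 13.7% cluster 1, led by Atp6v0d2. In takinib 41.3% was cluster 17, led by U90926 and Saa3 (an acute-phase protein gene) and called Saa3-high below; 14.6% was cluster 5, led by H2-M2, and 9.12% cluster 3, led by Gpnmb. The Saa3-high cluster carried monocyte transcripts, with Ly6c2 at 406 CPM in takinib against 15.1 to 54.9 in the other macrophage-like clusters.

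Nos2 differed most. In macrophage-like cells it had 40 counts in vehicle (1.84 CPM, 95% interval 1.31 to 2.50) and 8441 in takinib (170 CPM, 167 to 174), a ratio of 92.9 (68.1 to 130). The share of cells with a Nos2 UMI was 0.595% in vehicle and 26.4% in takinib. The barcodes with under 100 UMIs in the vehicle library, which hold free RNA, had Nos2 at 3.07 CPM (2 counts, 0.372 to 11.1). That interval holds the vehicle level of the class.

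On the scale used for all genes, a log2 ratio with 10 CPM added to each library's level, Nos2 in macrophage-like cells came to 3.93 and ranked 11 of 12042 genes with at least 50 counts in either library. Arg2 came to 1.84 (rank 65), Ass1 to 0.91 (rank 265), Arg1 to 0.80 (rank 342), Slc7a2 to 0.56 (rank 627), Slc7a1 to −0.07 (rank 7440) and Odc1 to −0.38 (rank 11079). Of the 7 members 2 were higher by over 1, against 1.80% of all genes, and 0 were lower by over 1, against 1.18%. Their median was 0.80, and that of all genes −0.01.

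**Figure D1:**
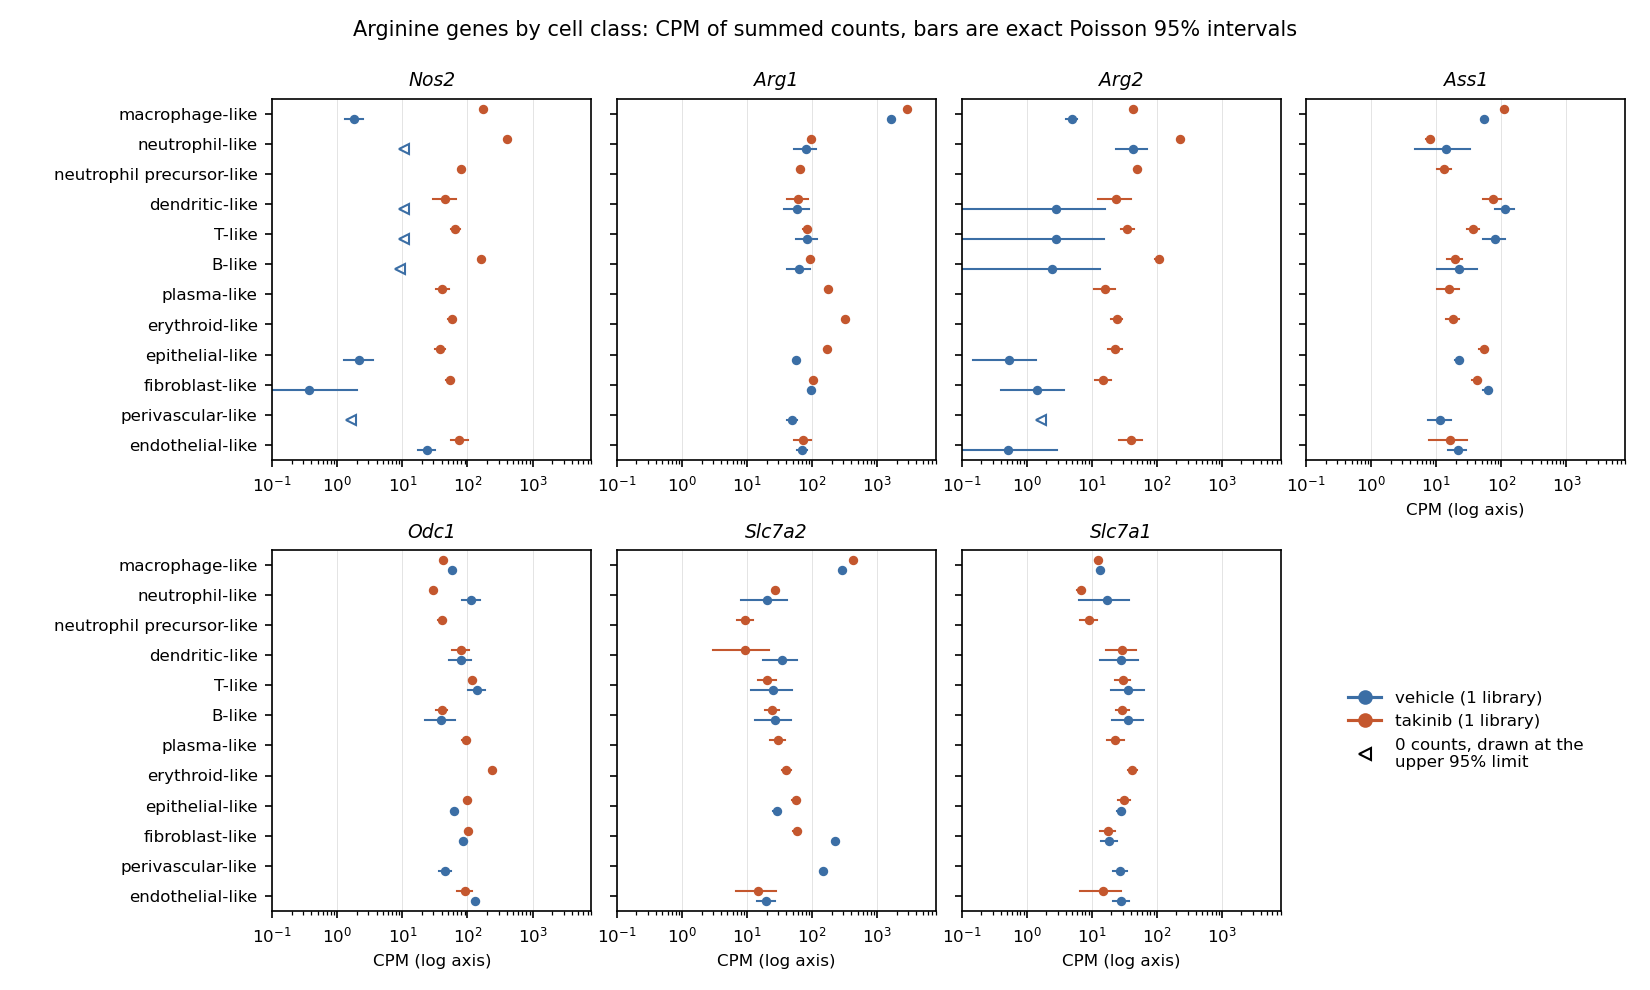
Level of each member (CPM, log axis) by cell class in vehicle (blue) and takinib (orange), each point 1 library with its exact Poisson 95% interval; an open triangle marks 0 counts at the upper limit. Nos2 in takinib lies above vehicle in each class drawn for both libraries, and Arg1 in the macrophage-like class stands above every other class in either library.

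In vehicle Nos2 was scarce everywhere, with 103 counts in the whole library. Endothelial-like cells held 43.7% of these at 23.5 CPM (17.1 to 31.4; 5.07% of 671 cells), macrophage-like cells 38.8% and epithelial-like cells 15.5%. S100a8 in endothelial-like cells was at 41.2 CPM. Perivascular-like cells (591) had 0 counts, which allows at most 1.64 CPM.

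In takinib the library held 22165 Nos2 counts, 51.2% in neutrophil-like and 38.1% in macrophage-like cells. Neutrophil-like cells had 0 counts in vehicle (upper limit 10.6 CPM in 271 cells) and 11357 in takinib (407 CPM, 400 to 415, with a UMI in 33.7% of 11834 cells). Against a floor of 3 vehicle counts, which is below that upper limit, takinib was 47.4-fold higher. The classes were filled by different clusters, since 263 of the 271 vehicle cells were in cluster 11, led by Ctsk, which held only 265 of the takinib cells. Cluster 8, led by Ccl4, had Nos2 at 558 CPM in takinib and 52.8% of its 5079 cells with a UMI. Cluster 13 had 231 CPM, cluster 12 (Retnlg) 177 CPM and cluster 11 47.7 CPM, where vehicle had 0 counts. Neutrophil precursor-like cells, with the highest S100a8 of any class (120966 CPM), had Nos2 at 80.5 CPM.

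Classes not known for Nos2 also held it in takinib. T-like cells had 65.4 CPM and 6.21% of cells (median 1674.5 UMIs), fibroblast-like cells 53.7 CPM and 16.4% (median 7689.5 UMIs), and plasma-like cells 41.2 CPM, against 26.4% and a median of 5924 UMIs in macrophage-like cells. The source of these levels was not tested. B-like cells stood at 163 CPM, but those of cluster 9, with S100a8 at 2015 CPM, had only 11.6 CPM. The remaining 568 B-like cells, cluster 24, had Nos2 at 265 CPM beside S100a8 at 36727 CPM and the neutrophil receptor Csf3r at 536 CPM.

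Nos2 was also set against S100a8. For each 1000 S100a8 counts the takinib library held 6.84 Nos2 counts in neutrophil-like cells, 7.17 in B-like, 10.3 in T-like, 11.9 in fibroblast-like and 9.21 in erythroid-like cells. Neutrophil precursor-like cells had 0.666. The macrophage-like clusters 1, 3, 5 and 0 had 4.46, 9.37, 13.2 and 15.5, and cluster 2, with little S100a8 (807 CPM), had 31.0 on 106 Nos2 counts. The Saa3-high cluster had 55.2, the highest of the takinib clusters.

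**Figure D2:**
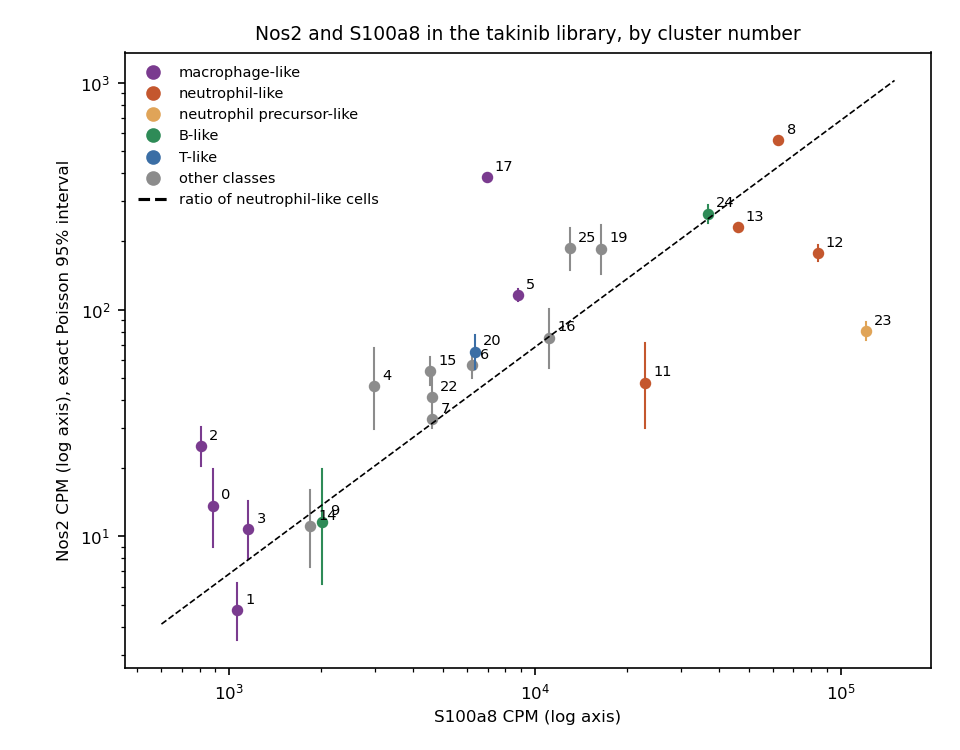
Nos2 against S100a8 (CPM, both log axes) in the takinib clusters, numbered and coloured by class, with exact Poisson 95% intervals for Nos2. The dashed line is the 6.84 Nos2 counts per 1000 S100a8 counts of neutrophil-like cells; cluster 17 lies far above it at 384 CPM, and B-like cluster 24 lies on it.

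Among macrophage-like clusters Nos2 was concentrated in one. The Saa3-high cluster had 384 CPM in takinib (375 to 393), with a UMI in 47.7% of 3016 cells, and cluster 5 had 116 CPM (33.7% of 1063 cells). Together they held most of the class's Nos2, 83.9% of its UMIs in the Saa3-high cluster and 13.4% in cluster 5. Clusters 0, 1, 2 and 3 had 13.7, 4.72, 25.0 and 10.8 CPM in takinib, below the 53.7 CPM of fibroblast-like cells.

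Cell numbers limited the same comparison within clusters. Vehicle had 69 cells in the Saa3-high cluster, with 9 Nos2 counts in 2 cells (51.5 CPM, 23.5 to 97.7), and 3 cells in cluster 5. Of those counts 8 came from 1 cell, which the interval does not reflect. Of those 69 cells, 58 fell at a finer clustering into a group of 76 vehicle cells led by the monocyte genes Vcan, S100a4 and Ccr2, with Saa3 at only 41.7 CPM. Only 3 clusters had at least 100 cells in both libraries. The Nos2 log2 ratio was 1.45 in cluster 2 and 0.37 in cluster 1, and cluster 0 had too few counts (10 and 27).

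Of the members with at least 50 counts, 1 of 7 was higher by over 1 in cluster 2 (1.09% of all genes), 0 of 7 in cluster 1 (0.792% of all genes) and 0 of 6 in cluster 0 (0.971% of all genes). Without the Saa3-high cluster the class ratio for Nos2 was 2.23, and with the 3 shared clusters weighted equally it was 1.07.

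**Figure D3:**
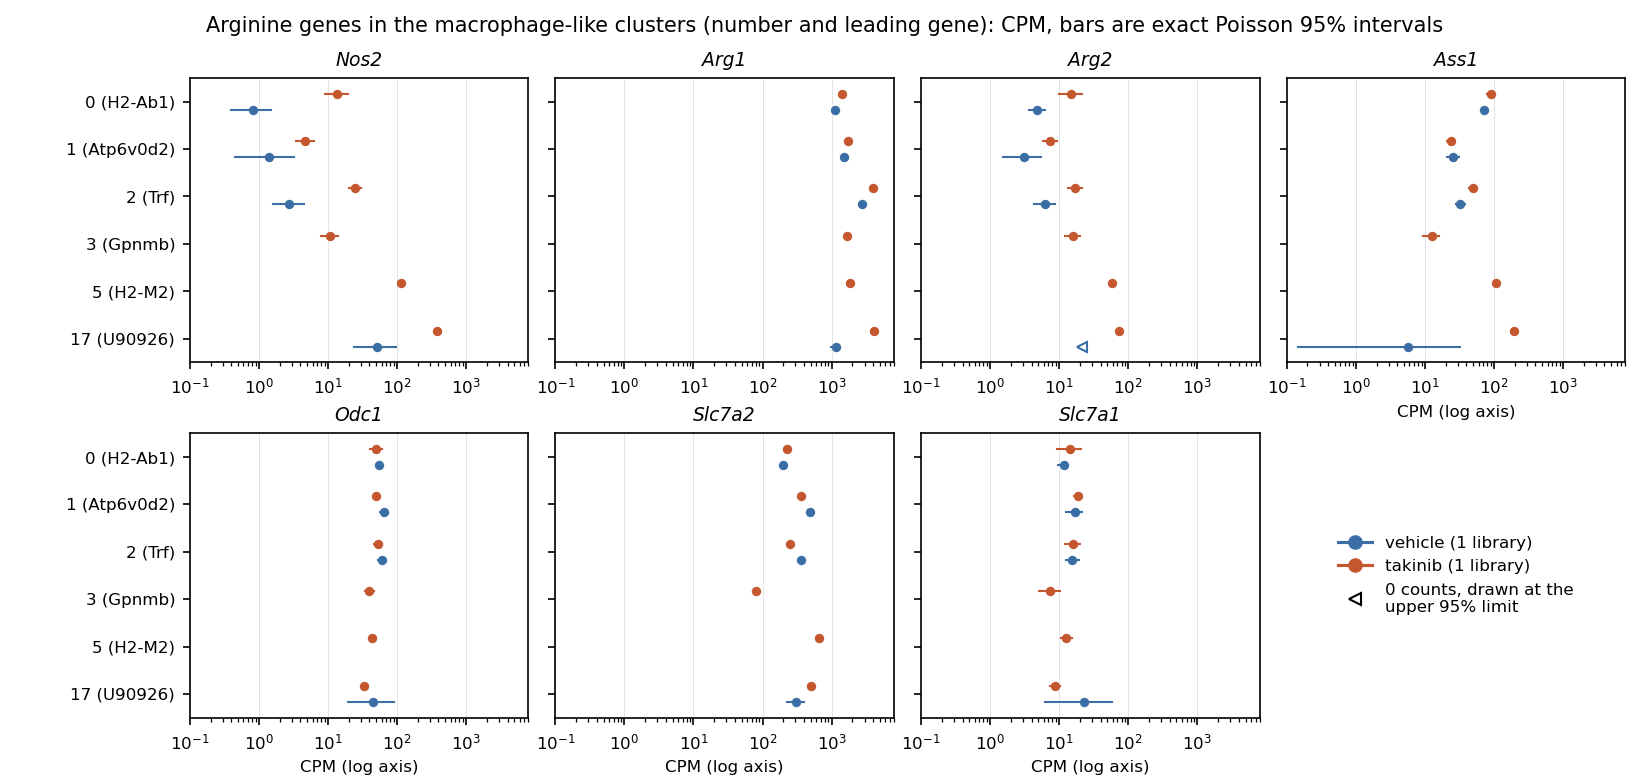
Level of each member (CPM, log axis) in the 6 macrophage-like clusters, numbered with their leading gene, in vehicle (blue) and takinib (orange), with exact Poisson 95% intervals and open triangles for 0 counts; clusters 3 and 5 are drawn for takinib alone. Nos2, Ass1 and Slc7a2 are high in takinib clusters 5 and 17, whereas Odc1 hardly varies.

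Arg1 was a macrophage gene in both libraries. Macrophage-like cells held 96.5% of the 36715 Arg1 counts in vehicle and 94.4% of 148518 in takinib, although they supplied 51.9% and 41.4% of all UMIs. The level in the class was 1625 CPM in vehicle (1608 to 1642) and 2830 in takinib (2815 to 2845), a ratio of 1.74 (1.72 to 1.76). The share of cells with a UMI was 83.5% and 83.4%, and with every cell thinned to 1000 UMIs it was 61.4% (60.1 to 62.8%) and 66.0% (64.9 to 67.1%). The cells with 10 or more Arg1 UMIs made up 24.9% in vehicle and 50.9% in takinib, whose macrophage-like cells were also deeper (median 5924 against 3885 UMIs).

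Arg1 was present in every macrophage-like cluster. In takinib it was at 4155 CPM in the Saa3-high cluster, 3985 in cluster 2, 1827 in cluster 5, 1734 in cluster 1, 1692 in cluster 3 and 1398 in cluster 0. Within shared clusters takinib exceeded vehicle by little, 1398 against 1119 CPM in cluster 0 (ratio 1.25, 1.20 to 1.30), 1734 against 1489.5 in cluster 1 (1.16, 1.13 to 1.20) and 3985 against 2783 in cluster 2 (1.43, 1.40 to 1.46). The class log2 ratio of 0.80 was 0.32 without the Saa3-high cluster.

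Most other classes had little Arg1. Vehicle barcodes under 100 UMIs held it at 554 CPM, above the 49.4 to 96.3 CPM of perivascular-, epithelial-, endothelial-, neutrophil-, T-, B- and fibroblast-like cells in that library. Takinib neutrophil-like cells had 96.7 CPM against 80.2 in vehicle, and T-like cells 83.6 against 84.6. Epithelial-like cells had 169 CPM in takinib and 57.1 in vehicle, but cluster 25, led by Gkn2, was present in takinib alone (217 cells) and had 601 CPM, with S100a8 at 12971 CPM. The shared epithelial-like cluster 14, led by Tnc, had 80.2 and 58.2 CPM. Erythroid-like and plasma-like cells of takinib had 325 and 173 CPM. An unnamed takinib cluster of 73 cells, cluster 19, had 1304 CPM, near macrophage-like cluster 0.

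Nos2 and Arg1 occurred in the same takinib macrophages. A UMI of both was found in 29 of 5041 vehicle cells (0.575%, Clopper-Pearson 0.386 to 0.825%) and in 1769 of 7299 takinib cells (24.2%, 23.3 to 25.2%). In takinib 91.9% of the 1925 cells with Nos2 also had Arg1, and 80.4% of the cells without Nos2. Multiplying the separate shares gives 1606 cells with both, and 1648 when done within 10 bins of depth. Vehicle had 29 of its 30 Nos2 cells with Arg1, beside a product of 25.1. In takinib most cells with Nos2 thus also held Arg1. Vehicle had only 30 cells with Nos2, and its class level lay within the counting interval of free RNA. No conclusion is drawn from those cells.

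Depth bears on these shares. With each cell thinned to 1000 UMIs, 4 vehicle cells (0.0793%) and 640 takinib cells (8.77%, 8.13 to 9.44%) held both, the latter beside a product of 516. Requiring 2 UMIs of each gene gave 0.0793% and 15.2%. The share with both genes elsewhere in takinib was 1.26% of T-like cells, 2.35% of B-like, 4.63% of fibroblast-like and 6.09% of neutrophil-like cells, classes with Arg1 in 14.5 to 21.0% of cells. In epithelial-like cells it was 11.1%.

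The Saa3-high cluster held 76.2% of the takinib cells with both genes. There 44.7% of cells had both (42.9 to 46.5%), and 18.4% after thinning. Arg1 was in 93.7% of its Nos2 cells and 71.1% of its other cells. Cluster 5 had 29.0%, and 5.74% after thinning, with Arg1 in 86.0% of Nos2 cells and 84.0% of the others. Clusters 0, 1, 2 and 3 had 2.12, 2.02, 8.12 and 3.30%, and 0.303 to 1.56% after thinning. Without the Saa3-high cluster 9.83% of the class had both genes.

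**Figure D4:**
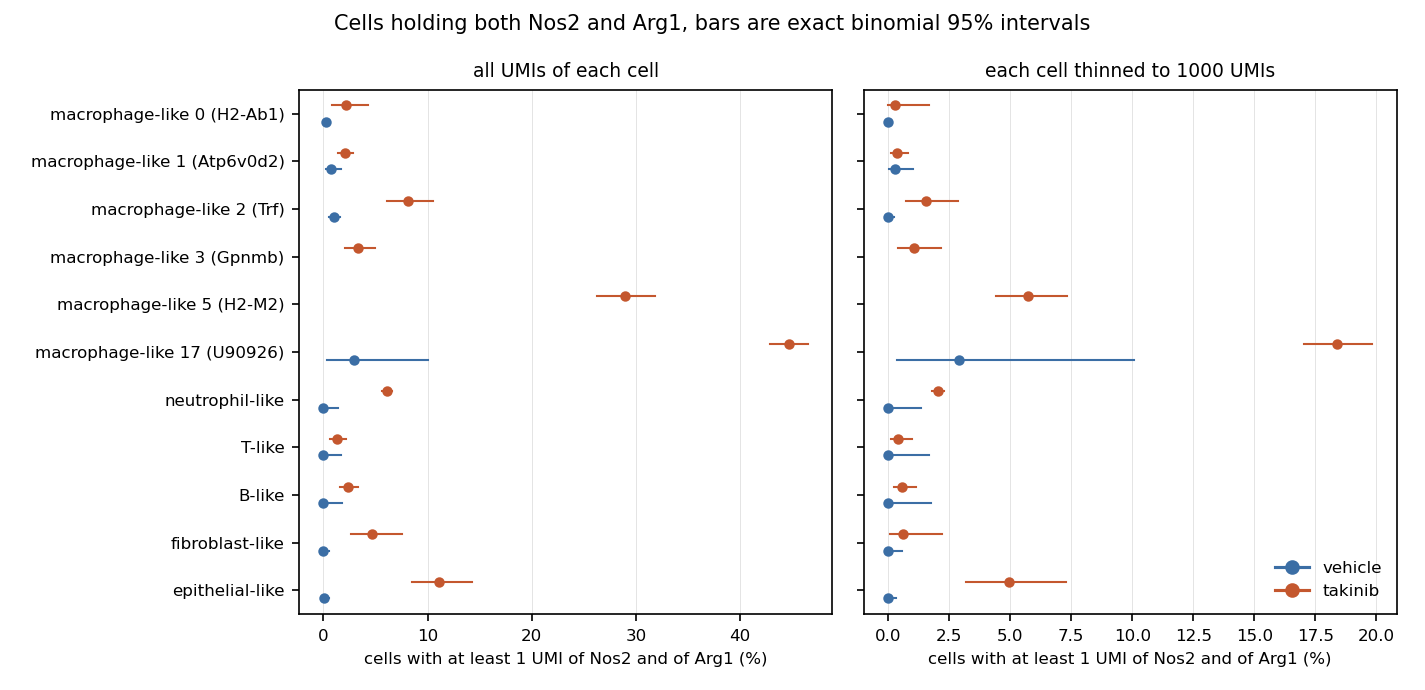
Share of cells with at least 1 UMI of both Nos2 and Arg1 in macrophage-like clusters and other classes, with all UMIs (left) and after thinning to 1000 UMIs (right), in vehicle (blue) and takinib (orange) with exact binomial 95% intervals. Cluster 17 in takinib, at 44.7% and 18.4%, stands above every other cluster and class shown.

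Within takinib macrophages the level of Arg1 was higher where Nos2 was higher. Cells with 0, 1, 2, 3 to 9 and 10 or more Nos2 UMIs numbered 5374, 679, 310, 707 and 229, and had Arg1 at 2332, 3655, 3806, 4247 and 4636 CPM. Slc7a2 went from 312 to 535, 547, 834 and 1107 CPM over the same groups, whose median depths lay between 5672.5 and 6830 UMIs. Ass1 went from 64.6 to 151, 167, 243 and 360 CPM. Arg2 went from 29.3 to 119 CPM, whereas Odc1 stayed between 36.6 and 43.7 and Slc7a1 between 7.89 and 13.1.

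The complement gene C1qa ran the other way, from 1427 to 270 CPM, and S100a8 was higher with Nos2, from 3426 to 8798 CPM; the part of neutrophil RNA in these values was not tested. The order held for Ass1 and Slc7a2 within the Saa3-high cluster, where cells with 0 and with 10 or more Nos2 UMIs had Ass1 at 128 and 376 CPM and Slc7a2 at 271 and 1084 CPM. Arg1 there was 3413 CPM with 0 Nos2 UMIs and 4651, 4520, 5031 and 4887 CPM in the following groups. It was thus higher from 1 UMI on, with no steady order after that. Median depth was 4905 UMIs in the first group and 6754.5 in the last.

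Neutrophil-like cells of the same library with 10 or more Nos2 UMIs (133 cells) had Ass1 at 15.1 CPM and Slc7a2 at 32.5 CPM, beside 7.26 and 24.1 CPM in those with 0. Arg1 in them was 92.9 CPM at 0 Nos2 UMIs, 90.5 at 3 to 9 and 268 at 10 or more. Nos2 in neutrophil-like cells was thus not accompanied by the Ass1 and Slc7a2 levels of Nos2-bearing macrophages; the difference between the classes was not tested.

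**Figure D5:**
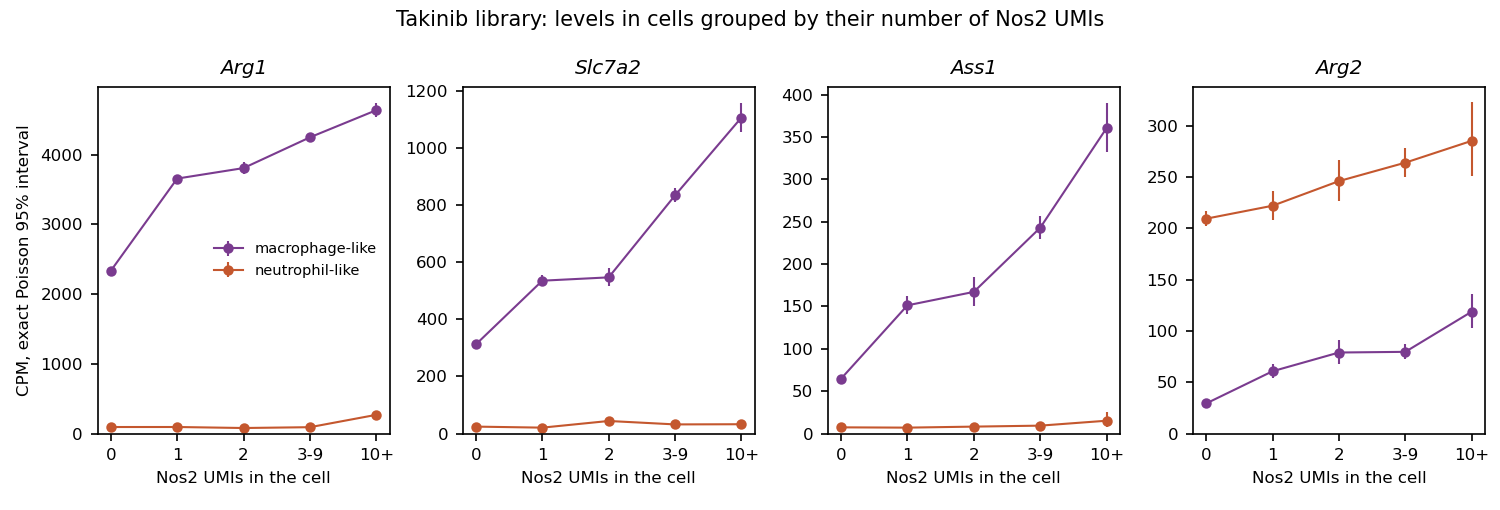
Level (CPM, exact Poisson 95% interval) of Arg1, Slc7a2, Ass1 and Arg2 in takinib cells grouped by their number of Nos2 UMIs, for macrophage-like (purple) and neutrophil-like (orange) cells. In macrophage-like cells Ass1 runs from 64.6 to 360 CPM and Slc7a2 from 312 to 1107 CPM, while in neutrophil-like cells both stay below 50 CPM.

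Arg2, the mitochondrial arginase, had its highest class level in neutrophil-like cells in both libraries. Neutrophil-like cells had 15 counts in vehicle (43.0 CPM, 24.04 to 70.8) and 6322 in takinib (227 CPM, 221 to 232), a ratio of 5.27 (3.20 to 9.43). They held 63.2% of the 10009 takinib counts, and 10.7% of the 140 in vehicle. Takinib levels were 271 CPM in cluster 8, 201 in cluster 12, 160 in cluster 13 and 104 in cluster 11. In cluster 11, shared between the libraries, vehicle had 35.4 CPM.

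Of the 7 members in neutrophil-like cells, Nos2 and Arg2 were higher by over 1 (background 4.44%) and Odc1 lower by over 1 (background 15.8%). Of the 2 members with enough counts within cluster 11, Arg2 was higher by over 1 (background 10.2%), with a log2 ratio of 1.32. For the other, Arg1, it was 0.71.

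Macrophage-like cells had Arg2 at 4.91 CPM in vehicle and 43.5 CPM in takinib, a ratio of 8.87 (7.30 to 10.9). By cluster in takinib it was 72.6 CPM in the Saa3-high cluster, 58.2 in cluster 5 and 7.37 to 16.98 in clusters 0 to 3. For comparison, T-like cells had 35.5 CPM and fibroblast-like cells 15.1 CPM in takinib, against 2.82 and 1.47 in vehicle. The Saa3-high cluster and cluster 5 lay above both. The class log2 ratio of 1.84 was 0.98 with a per-cell marker gate in place of clusters and 0.65 with the 3 shared clusters weighted equally, so the call was lost in both.

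Arg2 in B-like cells was 107 CPM in takinib, split as Nos2 was, with 11.6 CPM in cluster 9 and 171 in the S100a8-rich cluster 24. Of the 7 members in B-like cells Nos2 and Arg2 were higher by over 1 (background 10.6%), and the same genes were so among the 6 counted in T-like cells (background 6.28%). In B-like cluster 9 alone 0 of the 3 counted members were higher by over 1 (background 4.97%). S100a8 in takinib was 22810 CPM in B-like and 6346 CPM in T-like cells, against 345 and 116 CPM in vehicle. In cells with at most 5 UMIs of S100a8 and S100a9, the log2 ratio of Nos2 was 1.57 in B-like cells, from 4.12, and 0.89 in T-like cells, from 2.91. That of Arg2 was 0.62, from 3.23, and 0.53, from 1.83, so Nos2 in B-like cells alone was still past 1; with no doublet removal it was 1.10 and Arg2 0.79 there.

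Ass1, which makes argininosuccinate from citrulline, had no single direction across classes. Macrophage-like cells had 53.2 CPM in vehicle (50.2 to 56.4) and 108 in takinib (106 to 111), a ratio of 2.04 (1.91 to 2.17). The takinib clusters were spread widely, 197 CPM in the Saa3-high cluster, 107 in cluster 5, 91.1 in cluster 0, 49.5 in cluster 2, 24.1 in cluster 1 and 12.5 in cluster 3. Vehicle had 72.0, 32.9 and 25.9 CPM in clusters 0, 2 and 1, so the log2 ratios within shared clusters were 0.30, 0.47 and −0.07. Without the Saa3-high cluster the class ratio on that scale was 0.05.

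Epithelial-like cells had Ass1 at 22.4 CPM in vehicle and 53.4 in takinib (ratio 2.39, 1.92 to 2.98), and cluster 14 alone 23.6 and 60.8 CPM. This was the member past 1 of the 5 counted in cluster 14 (log2 ratio 1.08; background 2.07%). In the whole epithelial-like class 3 of 7 members were higher by over 1, Nos2, Arg1 and Arg2 (background 3.35%). In cells with at most 5 UMIs of S100a8 and S100a9 their log2 ratios were 0.52, 0.99 and 0.21, from 1.99, 1.41 and 1.65, so none was past 1. The Arg1 call was also lost with at least 2000 UMIs and 1000 genes per cell (0.81), with each library clustered on its own (0.88) and at Leiden resolution 2 (0.96).

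T-like cells had less Ass1 in takinib, 36.9 CPM against 79.0 (ratio 0.467, 0.300 to 0.747). Fibroblast-like cells had 41.8 CPM against 61.2 (ratio 0.683, 0.543 to 0.857), but the direction turned at Leiden resolution 2, from a log2 ratio of −0.46 to 0.77. The class there was a cluster of 525 vehicle and 58 takinib cells led by Igfbp3, and a cluster of 118 and 247 cells led by Dcn was left unnamed, so the fibroblast-like cells of the libraries differed in makeup.

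Slc7a2, the inducible arginine transporter, followed Arg1 in being macrophage-rich. Macrophage-like cells held 83.1% of its 7585 counts in vehicle and 92.2% of 23203 in takinib, at 289 CPM (282 to 296) and 432 CPM (426 to 438). The class ratio of 1.49 (1.45 to 1.54) did not hold within all shared clusters. Cluster 1 had 485 CPM in vehicle and 362 in takinib (ratio 0.746, 0.705 to 0.790), cluster 2 had 365 and 247 (0.677, 0.629 to 0.730), and cluster 0 had 196 and 228 (1.16, 1.05 to 1.29). Takinib cluster 5 stood at 647 CPM, the Saa3-high cluster at 509 and cluster 3 at 79.9.

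In fibroblast-like cells Slc7a2 was lower in takinib, 209 counts in 324 cells (59.4 CPM, 51.6 to 68.0) against 621 in 662 cells (227 CPM, 210 to 246), a ratio of 0.261 (0.222 to 0.306). It was the member lower by over 1 there, with Nos2 and Arg2 higher by over 1 (background 4.64% higher, 6.14% lower). At Leiden resolution 2, with the makeup given above, Slc7a2 was at −0.68, from −1.78, and no longer past −1. Arg2 was at 0.26, from 1.13, at that resolution, 0.44 in cells with at most 5 UMIs of S100a8 and S100a9, 0.77 with 15% of doublet scores removed and 0.97 with cells thinned to 1000 UMIs. Perivascular-like cells of vehicle had 146 CPM and a UMI in 37.1% of cells, against 5.51% in endothelial-like cells. The free-RNA level of Slc7a2 in vehicle was 167 CPM (137 to 202), below the fibroblast- and macrophage-like levels. Its interval holds the perivascular-like level. How much free RNA entered the cells was not tested.

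Slc7a1, the housekeeping transporter, differed little between the libraries in macrophage-like cells, with 13.5 CPM in vehicle and 12.4 CPM in takinib (ratio 0.913, 0.793 to 1.05). Its highest class level was 42.3 CPM in takinib erythroid-like cells. In epithelial-like cells it was 28.1 and 31.4 CPM. The intervals of both ratios, 0.793 to 1.05 and 0.869 to 1.43, hold 1. Neutrophil-like cells had 17.2 CPM in vehicle (6 counts) and 6.88 in takinib (ratio 0.401, 0.181 to 1.10). In cluster 7, left unnamed, the ratio was 1.32 (1.07 to 1.65).

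Odc1, the rate-limiting enzyme of polyamine synthesis, was not a macrophage gene in these tumours, since that class held 45.4% of its counts in vehicle and 30.7% in takinib, less than its share of all UMIs. Macrophage-like cells had 57.8 CPM in vehicle and 42.1 in takinib (ratio 0.728, 0.679 to 0.782). The takinib clusters lay between 33.6 CPM in the Saa3-high cluster and 53.5 in cluster 2. Within shared clusters the log2 ratios were −0.09, −0.33 and −0.15 in clusters 0, 1 and 2.

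Neutrophil-like cells had Odc1 at 115 CPM in vehicle (40 counts) and 29.6 in takinib (ratio 0.259, 0.188 to 0.365). Cluster 11 alone had 118 and 60.1 CPM. Epithelial-like cells went the other way, 62.0 and 99.8 CPM (ratio 1.61, 1.39 to 1.86). The highest level was 237 CPM, in takinib erythroid-like cells, with a UMI in 46.6% of them. Vehicle endothelial-like cells had 132 CPM and T-like cells 138 CPM, and takinib T-like cells 118 CPM.

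The rest of the pathway in macrophage-like cells moved less than Nos2 and Arg2. In that class 1.80% of all genes were higher and 1.18% lower by over 1. Of the other enzymes that use arginine, 2 of 5 had enough counts and 0 were past 1 (median log2 ratio −0.25, against −0.01 for all genes); endothelial Nos3 had 35 and 32 counts. In the urea cycle list 2 of 6 were counted and 0 past 1 (median −0.04), among them Asl, the partner of Ass1, at 21.8 CPM in vehicle and 20.1 in takinib. Ornithine to proline and glutamate gave 0 of 6 past 1 (median −0.10), with Oat, the ornithine aminotransferase, at 35.6 and 37.3 CPM.

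Polyamine genes gave 0 of 14 past 1 (median 0.09). Srm, spermidine synthase, was at 35.4 and 29.0 CPM, and Sat1, the spermidine acetyltransferase of polyamine breakdown, at 475 and 529 CPM. Genes for the nitric oxide synthase cofactor and inhibitors gave 0 of 7 past 1 (median −0.01), with Gch1, which starts tetrahydrobiopterin synthesis, at 31.5 and 58.8 CPM (log2 ratio 0.73).

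Among the transporters Slc7a11, the cystine/glutamate exchanger, was the 1 of 8 past 1 (background 1.80%), at 91.3 CPM in vehicle and 253 in takinib (log2 ratio 1.38, list median −0.07). Slc3a2, the shared heavy chain, was at 144 and 157 CPM, and Slc7a7, a cationic amino acid exporter, at 27.4 and 19.7 CPM.

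Among inducers, receptors and transcription factors of Nos2, 1 of 12 was past 1 (median 0.24, background 1.80%): Il1b, an inflammatory cytokine, at 463 CPM in vehicle and 1415 in takinib. Of those of Arg1 0 of 11 were (median 0.12). The macrophage inflammatory list had 3 of 8 higher (median 0.76, background 1.80%), the chemokine Ccl5 (13.2 and 313 CPM), the neutrophil chemoattractant Cxcl2 (580 and 3907 CPM) and the cyclooxygenase Ptgs2 (18.0 and 128 CPM).

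The alternative list moved both ways, 2 higher and 2 lower of 8 (median 0.12, background 1.80% higher and 1.18% lower). The chitinase-like Chil3 was at 2696 and 7501 CPM and the haemoglobin scavenger receptor Cd163 at 7.48 and 25.1, against the lectin Mgl2 at 90.8 and 7.43 and Retnla at 99.7 and 36.3. All 6 MHC class II genes were lower by over 1 in takinib (median −2.27, background 1.18%), H2-Ab1 at 2833 and 417 CPM, H2-Eb1 at 1945 and 294 and H2-Aa at 2810 and 477. In cluster 0 alone 0 of 6 were lower by over 1 (median −0.30, against 0.09 for all genes). Hypoxia and glycolysis gave 2 higher of 10 (median 0.57, background 1.80%), Bnip3 at 87.0 and 222 CPM and Ero1l at 64.2 and 165. The cluster makeup of the class differed between the libraries as given above, and its part in these lists was not tested.

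In neutrophil-like cells the same lists moved more widely, in a class where 4.44% of all genes were higher and 15.8% lower by over 1. Polyamine genes had 3 higher and 1 lower of 14 (median log2 ratio −0.11, against −0.38 for all genes), with Sat1 at 346.5 CPM in vehicle and 1047 in takinib. Smox, spermine oxidase, chosen after its values were seen, was at 20.05 and 366 CPM. The cofactor list had 1 higher and 1 lower of 7 (median −0.09), the former being Gch1, at 17.2 and 84.7 CPM. Transporters also had 1 and 1 of 7 (median −0.28), with Slc7a11 at 85.9 and 780 CPM.

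The rest gave 0 higher and 1 lower of 1 among arginine-using enzymes, 0 of 1 past 1 in the urea cycle and 0 of 4 from ornithine to proline and glutamate. Nos2 inducers had 1 higher of 11 and Arg1 inducers 0 of 12. Inflammatory genes had 1 higher of 6, alternative genes 3 higher of 6, MHC class II genes 3 lower of 5 and hypoxia genes 6 higher of 10. Vehicle counts in this class were few, and its clusters differed between the libraries as given above.

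Across 34 cluster-by-library units of at least 100 cells, which share libraries and depth, the members fell into few patterns by Pearson correlation of log2(CPM+10) among 7803 genes. Most like Nos2 were Fpr1 (0.92), Acod1 (0.92), Csta2 (0.92), Irak3 (0.91) and Pfkfb3 (0.91). Most like Arg1 were Msr1 (0.96), F7 (0.94), Ms4a8a (0.94), Cndp2 (0.94) and C1qb (0.93). Most like Arg2 were Mefv (0.97), Mirt2 (0.97) and Acod1 (0.97), and most like Slc7a2 Cndp2 (0.87), F7 (0.86) and Arg1 itself (0.84).

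Ass1 had lower highest values, with Tnfrsf9 (0.72), Stx8 (0.68) and Cxcl16 (0.67). Odc1 was most like Cad (0.81), Nolc1 (0.77) and Nop58 (0.76), and Slc7a1 most like Sf3b3 (0.87), Tcf3 (0.86) and Vars (0.86). Between members the value was 0.90 for Nos2 with Arg2 and 0.84 for Arg1 with Slc7a2. For Nos2 with Arg1 it was 0.07, although the genes shared cells in the Saa3-high cluster.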

How the data were processed

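Per the file headers, the deposited matrices hold raw UMI counts per gene and barcode, made with Cell Ranger 4 for vehicle and cellranger-6.1.1 for takinib. The submitters' processing notes list mm10, Cell Ranger 2.1.1, bcl2fastq, STAR 2.0.4b, Subread and featureCounts 1.45, with no role given. The vehicle matrix lists 704261 barcodes; the takinib matrix lists 34158, none under 500 UMIs, so takinib holds no shallow barcodes from which free RNA could be measured.

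Filters of 1000 or more UMIs, 500 or more genes and no more than 20% mitochondrial UMIs kept 9872 barcodes in vehicle and 26790 in takinib. Scrublet's automatic threshold marked 3.18% in vehicle, where 314 barcodes were removed, but 0.00373% in takinib, which is no working call, so the top 6% by score (1607 barcodes) were taken out there. The libraries were clustered together (scanpy 1.11.5, igraph 0.11.9, 2000 variable genes, 30 components, 15 neighbours, Leiden resolution 1, seed 1; numpy 2.4.6, scipy 1.17.1, pandas 2.3.3) with no correction between them. Clusters were named from marker lists of 17 classes. Macrophage and monocyte markers were pooled into macrophage-like, and the naming rule was set after seeing the clusters. A cluster needed at least 3 detected markers. Names rebuilt from markers can differ from those of the study.

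Counts were summed per class or cluster and library and scaled to CPM. Intervals at 95% are exact Poisson for CPM, Clopper-Pearson for shares and exact conditional binomial for ratios. A pseudocount of 10 CPM understates log2 ratios of low genes. Genes with at least 50 counts in either library were counted, and called past 1 or −1; a fold against 0 counts uses 3 counts as the floor. Classes with at least 100 cells in both libraries were compared. The summing and intervals were tested on simulated data.

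The members and the 12 gene lists were chosen with earlier results of these data known. Genes named are the members, up to 3 highest and 3 lowest past 1 per list in macrophage-like cells, Asl, Oat, Nos3, Slc3a2, Slc7a7, Srm, Sat1 and Gch1, and the genes most like a member (5 for Nos2 and Arg1, 3 for the others). Smox and marker genes such as S100a8, Saa3, Ly6c2, C1qa and Csf3r were added after their values were seen. A planned comparison of protein sequences was not run. In all, 13 alternatives were planned and others added after seeing the data.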

Additional observations from a re-analysis of the deposited data

Results flagged for a closer look

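Ass1, Odc1 and Slc7a2 had log2 ratios of opposite sign in different classes, with counting intervals of the ratio on either side of 1. The difference between classes was not tested, because each group is 1 library. For Ass1 the values were 0.97 (epithelial-like), 0.91 (macrophage-like), −0.92 (T-like) and −0.46 (fibroblast-like). The fibroblast-like value was 0.77 at Leiden resolution 2 and the macrophage-like value 0.03 with the marker gate. Odc1 was at 0.61 in epithelial-like cells, and at −0.38 in macrophage-like and −1.65 in neutrophil-like cells. For Slc7a2 they were 0.78 (epithelial-like), 0.56 (macrophage-like) and −1.78 (fibroblast-like). The epithelial-like value was −0.09 at Leiden resolution 2 and −0.22 with at most 5 UMIs of S100a8 and S100a9, and the macrophage-like value −0.31 with equal weight of the shared clusters. Within the epithelial-like cluster shared by the libraries, cluster 14, Slc7a2 was at −0.13, Ass1 at 1.08 and Odc1 at 0.84.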

How the results depend on the processing

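No paired analysis was possible because each group is 1 library; for the same reason no library could be left out. The Nos2 log2 ratio in macrophage-like cells (3.93) was 4.05 with no doublet removal, 3.78 with the 15% highest doublet scores removed, 2.36 with a per-cell macrophage marker gate in place of clusters, 4.10 with cells thinned to 1000 UMIs, 4.12 against the Xist-positive vehicle cells that lacked Y-linked UMIs, 2.75 in cells with at most 5 UMIs of S100a8 and S100a9, and 5.92 with a pseudocount of 1 CPM. The Arg1 ratio (0.80) was 0.75 with at most 10% mitochondrial UMIs, 0.75 with no doublet removal, 1.34 with each library clustered on its own, 0.58 with the gate, 0.73 thinned, 1.06 against the Xist cells and 0.61 with at most 5 of those UMIs. The takinib share of macrophage-like cells with both genes (24.2%) was 26.8% with no doublet removal, 21.9% with 15% removed, 7.49% with the gate, 8.77% thinned, 10.5% with at most 5 of those UMIs and 15.2% with 2 UMIs of each gene; the vehicle share (0.575%) was 0.0793% thinned, 0.177% in the Xist cells and 0.0793% with 2 UMIs of each. Among alternatives added after seeing the data, leaving out the Saa3-high cluster gave 2.23 for Nos2, 0.32 for Arg1 and 9.83% for the takinib share, and equal weight of the 3 shared clusters gave 1.07, 0.40 and 4.09%. The gate kept 6252 vehicle and 1869 takinib cells, and the limit of 5 UMIs 4925 and 2737. With each library clustered on its own the class held 3655 and 7316 cells. A vehicle cluster of 1331 cells with Arg1 among its leading genes was then left unnamed. All alternative ratios of Nos2 and Arg1 given here stayed above 0. Over the other members and classes 44 of 434 changed sign, and 24 of 155 values past 1 were no longer past it. Slc7a2 in macrophage-like cells ranged from −0.31 (equal weight) to 0.79 and Ass1 from 0.03 (gate) to 1.75 (against the Xist cells). Slc7a2 in dendritic-like cells reversed, from −1.20 to 0.069 with no doublet removal, on 12 and 5 counts. The cause was not tested. Depth limits the vehicle neutrophil-like values, among others, with 271 cells at a median of 1213 UMIs.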

Other observations

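At a finer clustering (Leiden resolution 2) the takinib cells of the Saa3-high cluster split into groups with different arginine genes. The group led by U90926, Saa3 and Ptges (1567 cells) had Nos2 at 567 CPM, Arg1 at 5103, Ass1 at 267 and Slc7a2 at 770, and 66.9% of its cells held both Nos2 and Arg1 (30.3% after thinning). The group led by Ccl5, Ms4a4a and F13a1 (576 cells) had Arg1 as high, at 5288 CPM, with Nos2 at 152, Ass1 at 101 and Slc7a2 at 329, and both genes in 32.6%. The monocyte-gene group led by Vcan, S100a4 and Ccr2 (898 cells, 876 of them from cluster 17) had Nos2 at 160 CPM and Arg1 at 1023, with both in 12.4%. Saa3 was at 84093, 51521 and 7090 CPM in the 3 groups, so the cluster's name does not describe the last. Nos2 counts per 1000 S100a8 counts were 73.3, 88.1 and 16.3 in the 3 groups, so the last was the nearest to the 6.84 of neutrophil-like cells. In vehicle the Vcan group had 76 cells, 0 Nos2 counts and Arg1 at 185 CPM.

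Further pairs in takinib macrophage-like cells differed from the product of their separate shares. Nos2 met Ass1 in 1060 cells beside a product of 564 (thinned 171 and 63.4), Slc7a2 in 1476 beside 1127 (thinned 363 and 194) and Arg2 in 714 beside 391 (thinned 75 and 31.8). Nos2 met Odc1 in 408 beside 412 and Slc7a1 in 133 beside 141. Slc7a2 was in 65.2% of cells with Arg1 and 25.1% of cells without it, and in vehicle in 54.8% and 25.9%. Arg1 met Ass1 in 1944 cells beside 1784, and in vehicle in 555 beside 554. Within the takinib Saa3-high cluster alone, Nos2 met Ass1 in 899 cells beside 690, Slc7a2 in 1103 beside 826 and Arg2 in 536 beside 425. The excess over the product was smaller there for Ass1 and Arg2.

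The 156 takinib macrophage-like cells with Nos2 and without Arg1 had S100a8 at 14750 CPM and Ly6c2 at 579, against 7380 and 196 in the 1769 cells with both genes. Saa3 was at 19734 CPM in the former and 52326 in the latter. Slc7a11 was at 430 and 415 CPM in these groups, and at 187 CPM in the 4320 cells with Arg1 alone.

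Vehicle macrophage-like cells with Xist and no Y-linked UMI (564) had Ass1 at 25.1 CPM (19.5 to 31.9), and those with Y-linked UMIs and no Xist (1410) at 62.8 CPM (57.1 to 69.0). Arg1 was at 1350 and 1724 CPM and Slc7a2 at 368 and 304 CPM. The number of mice behind each is not given, so sex and animal cannot be told apart.

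Among cells left unnamed, cluster 7, led by Dmbt1, had 0 Nos2 counts in 627 vehicle cells and 587 counts in 1295 takinib cells (32.8 CPM), with S100a8 at 37.0 and 4615 CPM. Ass1 there was 14.5 and 49.6 CPM. Of its 7 members 3 were higher by over 1, Nos2, Arg2 and Ass1 (background 2.98%). Cluster 19 (73 takinib cells) had Arg1 at 1304 CPM, with a UMI in 94.5% of cells.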
